A study of Drosophila melanogaster with 12 samples.

Results

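The genes described here encode the protein kinases, the phosphatase subunits and the degradation factors that act on the PERIOD (PER) and TIMELESS (TIM) proteins of the Drosophila clock. The 10 members were taken by name, by a rule that uses no measured value, although earlier results of these data were known when the list was drawn up: dco, sgg, CkIIalpha, CkIIbeta, nmo, slmb, jet, mts, tws and wdb. Of these, 9 were found among the 14413 counted features. The tenth, slmb, which encodes the F-box protein that delivers phosphorylated PER for degradation, was not matched by its current FlyBase identifier and was not analysed here. All 9 passed the filter on low counts in each comparison.

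The study asked how chronic circadian misalignment (CCM), a light-dark cycle longer than the natural day, affects gene expression in aging flies. RNA was sequenced from whole adults of the wild-type laboratory strain iso31, kept on sucrose-agar food under their schedule since the start of adult life. It was extracted shortly after lights-on. There were 4 conditions with 3 libraries each (A, B and C), every library made from a pool of 10 males and 10 females: CCM week 3 (14 h light and 14 h dark for 3 weeks), control week 3 (12 h light and 12 h dark for 3 weeks), CCM week 2 and control week 2 (the same schedules for 2 weeks). No source says that the pools came from separate cultures, so p-values measure the spread between these pools. In whole flies, fewer cells of a type and less of a transcript per cell cannot be told apart.

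The clock is a feedback loop in which PER and TIM accumulate, enter the nucleus and repress their own transcription. Phosphorylation sets the pace of the loop: kinases mark PER and TIM for nuclear entry or for degradation, a PP2A-type phosphatase removes phosphate from PER, and F-box proteins hand the marked proteins to ubiquitin ligases. These enzymes also serve many other pathways, such as Wnt and Hedgehog signalling and cell division, and are made in most tissues, so their whole-fly transcript levels are not a readout of clock cells.

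Library totals ranged between 17842804 and 23687266 counts. Levels are given as CPM, counts scaled to a library of 1000000 with TMM factors over the 12 libraries. Changes were tested with edgeR's quasi-likelihood F test and called at an adjusted p under 0.1 (Benjamini-Hochberg, over all features tested). Markers of neurons, photoreceptors, ovary, testis, male accessory gland, muscle and gut were all detected, as the label of whole flies of both sexes requires; 2 of the ovary and eggshell markers were at 0 in at least 1 library. A length trend ran through the libraries: the correlation, across features, of a library's deviation from the mean with log2 exonic length lay between -0.565 and -0.137 in the 6 week 3 libraries and between 0.051 and 0.568 in the 6 week 2 libraries. All members except jet are longer than the median tested gene (1872.5 to 1882 bases), so results are also given with length offsets, a correction that removes a smooth trend of counts with exonic length from each library.

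Per kilobase of exon, which is the scale on which different genes can be compared, mts was the most abundant member, at 75.2 ± 10.0 CPM per kb (SD over the 12 libraries). It encodes the catalytic subunit of PP2A. CkIIalpha, the catalytic subunit of casein kinase 2, came next at 51.9 ± 6.89 CPM per kb, and stood above the third, dco, in 12 of 12 libraries with no overlap of their ranges. dco had 22.4 ± 7.11 CPM per kb, tws 16.7 ± 6.39, sgg 14.7 ± 4.20, jet 13.0 ± 2.20 and CkIIbeta 10.5 ± 2.49. The ranges of neighbours in this middle group overlapped: dco was above tws in 12 of 12 libraries, tws above sgg in 9, sgg above jet in 6 and jet above CkIIbeta in 8, so that the order of sgg, jet and CkIIbeta was not settled. The lowest levels were those of wdb, at 6.66 ± 4.32 CPM per kb, and nmo, at 3.71 ± 2.32; CkIIbeta was above wdb in 11 of 12 libraries and wdb above nmo in 12 of 12, again with overlapping ranges. Among the members, the regulatory subunits tws, wdb and CkIIbeta were thus at lower transcript levels per length than their catalytic partners mts and CkIIalpha. Levels per length were not computed for other PP2A subunits. Exonic length here joins the exons of all annotated transcripts of a gene.

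**Figure D1:**
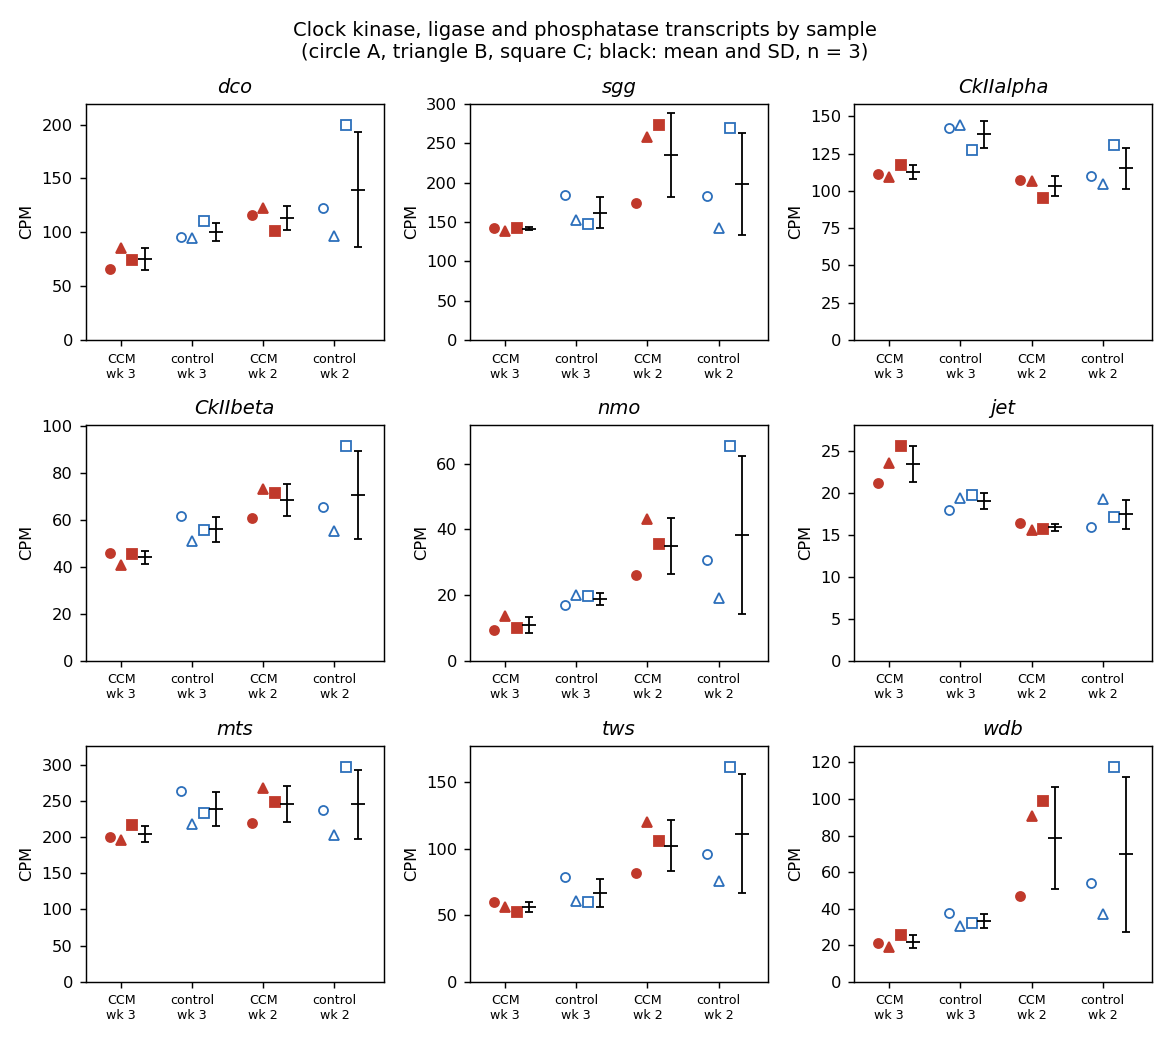
Normalised read counts (CPM) of the 9 measured members in each library, with the 4 conditions on the horizontal axis; circles, triangles and squares are libraries A, B and C, and black bars give the mean and SD of 3 libraries. At week 3 the CCM and control points are separate in every panel, jet being the only member higher in CCM. At week 2 the groups overlap in every panel, and control library C is the highest week 2 library for every member except sgg and jet.

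After 3 weeks, 8 of the 9 members had lower levels in all 3 CCM libraries than in any control library, and jet had higher levels in all 3. Over all 12208 features tested, the groups were separate in this way for 17.3%, 11.1% with CCM lower and 6.2% with CCM higher. In edgeR the lower level was past the threshold for 5 members (dco, CkIIalpha, CkIIbeta, nmo and wdb) when the replicate letter was fitted as a block, and for none without it. In this comparison libraries of the same letter deviated together. With the block, 6.26% of all features were called lower. In edgeR without it 0.0164% were called in either direction, while 6 of the 9 members had an unadjusted p under 0.05, as did 1462 of the 12208 features. The median log2 fold change of the members in that fit was -0.30, against -0.0014 over all features. With length offsets and no block the median of the members was -0.15, against -8.6e-07 over all features. With length offsets beside the block only nmo was called, where 2.24% of all features were called lower. DESeq2, with no block, called nmo and wdb lower, where it called 247 of 10057 features lower.

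Among the kinases that phosphorylate PER, dco, also called doubletime, is the casein kinase 1 that marks PER for degradation (3R:31054085-31061210, minus strand, dm6; 5 annotated transcripts). Its level was 66.0, 85.6 and 74.0 CPM in CCM week 3 libraries A, B and C, against 96.0, 94.96 and 110.1 CPM in the controls. Every CCM value lay under every control value, and dco fell by 0.42 on the log2 scale with the block (95% interval -0.65 to -0.19, edgeR adjusted p = 0.059). Without the block the fold change was about the same (-0.42) but the adjusted p was 0.26, and with block and length offsets it was -0.24 (adjusted p = 0.19).

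The nemo kinase nmo, which also phosphorylates PER in Drosophila and is best known from planar polarity and Wnt signalling, had the lowest level per length and the largest difference of the members (3L:7979046-8054147, plus strand). It had 9.26, 13.7 and 9.99 CPM in CCM week 3 flies, against 16.8, 19.9 and 19.8 CPM in control week 3 flies. The groups were well apart, and nmo fell by 0.79 on the log2 scale with the block (95% interval -1.09 to -0.49, edgeR adjusted p = 0.032). It was the one member called with length offsets and the block (-0.52, adjusted p = 0.085). With length offsets and no block nmo was not called (-0.51, edgeR adjusted p = 0.54), and its groups overlapped after each library was adjusted for length. DESeq2, with no block and no offsets, called nmo (adjusted p = 0.015). Its edgeR adjusted p without the block was 0.19.

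Casein kinase 2 phosphorylates PER and TIM before they enter the nucleus. Its catalytic subunit CkIIalpha (3L:23097072-23103460) had 111, 109 and 118 CPM in CCM week 3 libraries, against 142, 144 and 128 CPM in control week 3 libraries. Its regulatory subunit CkIIbeta (X:11792533-11801587) had 45.8, 41.0 and 45.6 CPM in CCM week 3 libraries, against 61.5, 51.0 and 55.6 CPM in control week 3 libraries. Both subunits were lower in each CCM library than in each control library. CkIIalpha fell by 0.29 (edgeR adjusted p = 0.078) and CkIIbeta by 0.34 (adjusted p = 0.042) with the block. CkIIalpha, at 2256 exonic bases close to the median gene, hardly moved with block and length offsets (-0.28, adjusted p = 0.105), whereas the longer CkIIbeta, at 5705 bases, was at -0.12 in that fit (adjusted p = 0.37). Of 271 exonic bases of CkIIalpha that lie under an annotated transposable element, reads cannot be assigned with certainty.

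The kinase shaggy (sgg), the fly GSK3, phosphorylates TIM and is a core component of Wnt signalling. It is the longest member, with 12499 exonic bases in 19 transcripts (X:2633952-2679553), and ends 6026 bases from the start of period on the same chromosome. Of its exonic bases 1470 (11.8%) are shared with lncRNA:CR45197 on the same strand, which is not among the counted features. Its level was 142, 139 and 142 CPM in CCM week 3 libraries, against 184, 153 and 148 CPM in controls. The highest CCM value lay just under the lowest control value, and sgg was not called (-0.19 with the block, edgeR adjusted p = 0.23). Its direction turned with the length offsets: the value with block and offsets was 0.21 (95% interval 0.06 to 0.37, adjusted p = 0.15). The length used for the offsets is that of the exons of all 19 transcripts joined, and which of these transcripts were expressed was not measured.

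jet encodes an F-box protein with leucine-rich repeats that promotes the degradation of TIM in light, and was the only member higher in CCM flies at week 3 (2L:4948206-4949784, minus strand). It had 21.2, 23.5 and 25.6 CPM in CCM week 3 libraries, against 18.0, 19.4 and 19.7 CPM in control week 3 libraries. The groups did not overlap, but the difference did not pass the threshold (0.29 with the block, 95% interval 0.09 to 0.50, edgeR adjusted p = 0.11; 0.24 with block and length offsets, adjusted p = 0.19). It is also the shortest member, at 1453 exonic bases, of which 119 (8.19%) overlap the antisense gene betaggt-I. The sources used here do not say whether reads were counted by strand, so reads in that overlap may belong to either gene.

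PP2A acts against these kinases on PER, and in flies its B-type subunits tws and wdb direct the catalytic subunit mts to it. wdb (3R:27561675-27582241) showed the larger difference, with 21.2, 19.0 and 25.7 CPM in CCM week 3 libraries, against 37.8, 30.4 and 31.9 CPM in controls. It fell by 0.61 on the log2 scale with the block (95% interval -0.86 to -0.36, edgeR adjusted p = 0.035), and DESeq2 with no block called it as well (adjusted p = 0.029). With block and length offsets wdb was at -0.32 and missed the threshold (adjusted p = 0.12). tws (3R:10126129-10139772) had 60.0, 56.6 and 52.7 CPM in CCM week 3 libraries, against 79.2, 60.7 and 60.2 CPM in controls, so that the groups were barely apart, the highest CCM library being at 59.99 CPM and the lowest control library at 60.24 CPM. It was not called (-0.23 with the block, adjusted p = 0.14), and neither was mts (2L:7827650-7833576), which had 199.8, 196 and 217 CPM in CCM libraries, against 264, 218 and 233 CPM in controls (-0.22, adjusted p = 0.16).

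**Figure D2:**
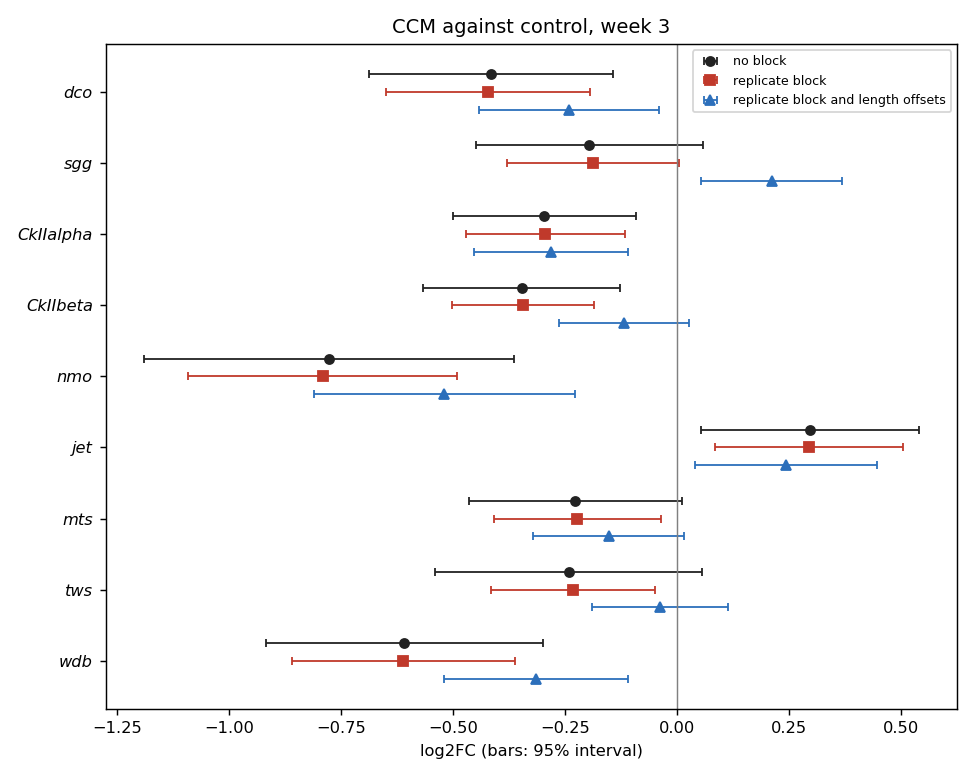
Log2 fold change of each member, CCM over control at week 3, with bars for the 95% interval; circles are the edgeR fit with no block, squares the fit with the replicate block and triangles the fit with the block and length offsets. nmo and wdb lie farthest to the left in the fits without length offsets, at -0.79 and -0.61 with the block, and sgg is the member that crosses 0 with length offsets.

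Beside these values, the summed level of 6 neuronal markers was 94.8 to 102 CPM in CCM week 3 libraries, against 113 to 164 CPM in control week 3 libraries. The 4 measured ovary and eggshell markers summed to 31.8 to 49.2 CPM in CCM week 3 libraries, against 54.7 to 91.3 CPM in controls. The sums of the yolk, photoreceptor, testis, male accessory gland, muscle and gut markers overlapped between CCM and control. Their log2 ratios of mean sums, CCM over control, lay between 0.02 (yolk) and 0.16 (gut). In edgeR without the block, no marker of these lists was called in this comparison, nor was any member, where 2 of all 12208 features were called. Marker calls with the block are not given here, and the part of the markers' cell types in the members' differences was not tested. Across features, the log2 fold change at week 3 correlated with log2 exonic length at -0.471 (11396 features). After each library was adjusted for length, 4 of the 9 members had non-overlapping groups at week 3, CkIIalpha and wdb lower in CCM and sgg and jet higher, against 14.8% of all features.

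At week 2, by contrast, CCM and control flies overlapped for each of the 9 members, where 13.3% of all features had separate groups. None was called (0% of all 12356 features), and none had an unadjusted p under 0.05 (700 features did); DESeq2 called 7 features and no member. The control libraries were widely spread: nmo had 26.0, 43.2 and 35.5 CPM in CCM week 2 libraries, against 30.7, 19.0 and 65.3 CPM in control week 2 libraries A, B and C. wdb had 46.9, 90.6 and 99.0 CPM in CCM week 2 libraries, against 54.1, 37.3 and 118 CPM in controls. Control library C was thus the highest and control library B the lowest of the 6 for both genes. The same held for dco, CkIIbeta and tws, and for mts, at 219, 268 and 249 CPM in CCM and 237, 202 and 297 CPM in controls.

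The PER kinase dco had 116, 122 and 101 CPM in CCM week 2 libraries, against 122, 96.8 and 199.4 CPM in controls. sgg had 174, 258 and 273 CPM in CCM week 2 libraries, against 183, 142 and 269 CPM in controls, with a log2 fold change of 0.26 (95% interval -0.34 to 0.85). The remaining log2 fold changes lay between -0.29 (dco) and 0.19 (wdb), with edgeR adjusted p between 0.73 and 0.99. For nmo the 95% interval ran from -1.08 to 0.84, so a change as large as that at week 3 was not excluded in either direction. Relative to its mean, jet varied least between libraries of a group (SD 2.56% of the mean in CCM and 9.93% in controls). It had 16.4, 15.6 and 15.7 CPM in CCM and 15.9, 19.3 and 17.1 CPM in controls (interval -0.45 to 0.19).

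The difference between the CCM effects at the 2 ages was tested as an interaction over all 12 libraries, and no member was called, nor was any other feature (0%; 570 of 12530 features had an unadjusted p under 0.05, and DESeq2 called 1 feature). jet had the lowest p of the members, with a CCM effect 0.44 higher on the log2 scale at week 3 than at week 2 (95% interval 0.08 to 0.79, edgeR unadjusted p = 0.021, adjusted p = 0.91). The largest point differences were those of wdb (-0.78) and nmo (-0.64), whose intervals, -1.91 to 0.35 and -1.75 to 0.47, included 0. Leaving out control week 2 library C brought 5 members to an unadjusted p under 0.05, and also raised the number of such features to 1338 of 12623. It is therefore not shown that the members responded to CCM differently at week 3 than at week 2.

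Between week 2 and week 3, 8 of the 9 members changed in CCM flies, 7 of them falling. The 2 CCM groups differed both in age and in weeks on the CCM schedule, which cannot be told apart here. Below, age stands for week 3 against week 2 in either schedule. Lower levels at week 3 were called for dco, sgg, CkIIbeta, nmo, mts, tws and wdb, and a higher one for jet; over all 12348 features, 29.6% were called lower and 26.4% higher. The groups did not overlap for any of the 9, with 7 lower and 2 higher at week 3 (all features: 62.4% in either direction, 30.4% lower and 32% higher). After each library was adjusted for length, 6 of the 9 had separate groups, 2 lower and 4 higher at week 3. Over all features 57.2% were then separate, 26.3% lower and 30.9% higher. The median log2 fold change of the members was -0.68, against -0.03 over all features. With length offsets the median of the members was 0.03, against 0.04 over all features. In the test without length offsets CkIIalpha was the exception, at 0.08 (95% interval -0.13 to 0.29, edgeR adjusted p = 0.48).

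The kinase nmo and the PP2A subunit wdb fell most. nmo had 9.26, 13.7 and 9.99 CPM in CCM week 3 libraries and 26.0, 43.2 and 35.5 CPM in CCM week 2 libraries, a log2 fold change of -1.72 (95% interval -2.26 to -1.17, edgeR adjusted p = 0.0014). wdb had 21.2, 19.0 and 25.7 CPM at week 3 and 46.9, 90.6 and 99.0 CPM at week 2, a log2 fold change of -1.90 (-2.54 to -1.26, adjusted p = 0.0017). The lowest week 2 value of each gene was well above its highest week 3 value. tws fell by 0.91 (adjusted p = 0.0031), with 60.0, 56.6 and 52.7 CPM at week 3 and 81.5, 120 and 106 CPM at week 2. sgg fell by 0.78 (adjusted p = 0.0084), CkIIbeta by 0.68 (adjusted p = 0.0020), dco by 0.64 (adjusted p = 0.0065) and the PP2A catalytic subunit mts by 0.32 (adjusted p = 0.048). The call of mts was lost without CCM week 2 library B (-0.23, adjusted p = 0.15) or C (-0.31, adjusted p = 0.12) and without CCM week 3 library A (-0.25, adjusted p = 0.19) or B (-0.23, adjusted p = 0.18). The TIM-directed F-box gene jet rose by 0.51 (0.26 to 0.76, adjusted p = 0.0074), with 21.2, 23.5 and 25.6 CPM at week 3 and 16.4, 15.6 and 15.7 CPM at week 2.

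Among the members these fold changes ran with exonic length, as they did across all features (correlation of the log2 fold change with log2 length -0.511 over 11506 features). jet (1453 bases) and CkIIalpha (2256 bases) were at the upper end of the fold changes, mts (3102 bases) came next, and nmo (6945 bases) and wdb (7655 bases) were at the lower end. The order was not exact: tws (5059 bases) fell more than the longer CkIIbeta (5705 bases), and sgg, the longest, stood far off it. With length offsets 4 members were called: nmo (-0.66, edgeR adjusted p = 0.022) and wdb (-0.74, adjusted p = 0.011) lower, jet (0.37, adjusted p = 0.020) and sgg (0.70, adjusted p = 0.0022) higher. Over all features 23.7% were then called lower and 26.9% higher. The direction of sgg therefore turned, dco (0.03), CkIIbeta (0.17), mts (-0.09) and tws (-0.17) were no longer called, and nmo, wdb and jet kept both direction and call. The neuronal marker sum was 94.8 to 102 CPM in CCM week 3 and 155 to 267 CPM in CCM week 2, with 6 of 6 markers called lower, and the ovary and eggshell sum was 31.8 to 49.2 CPM at week 3 and 139 to 222 CPM at week 2, with 2 of 4 called lower. Also called lower were 3 of 3 yolk, 4 of 6 testis and 3 of 6 photoreceptor markers, and called higher 3 of 4 gut markers. The part of these shifts in the members' changes was not tested.

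**Figure D3:**
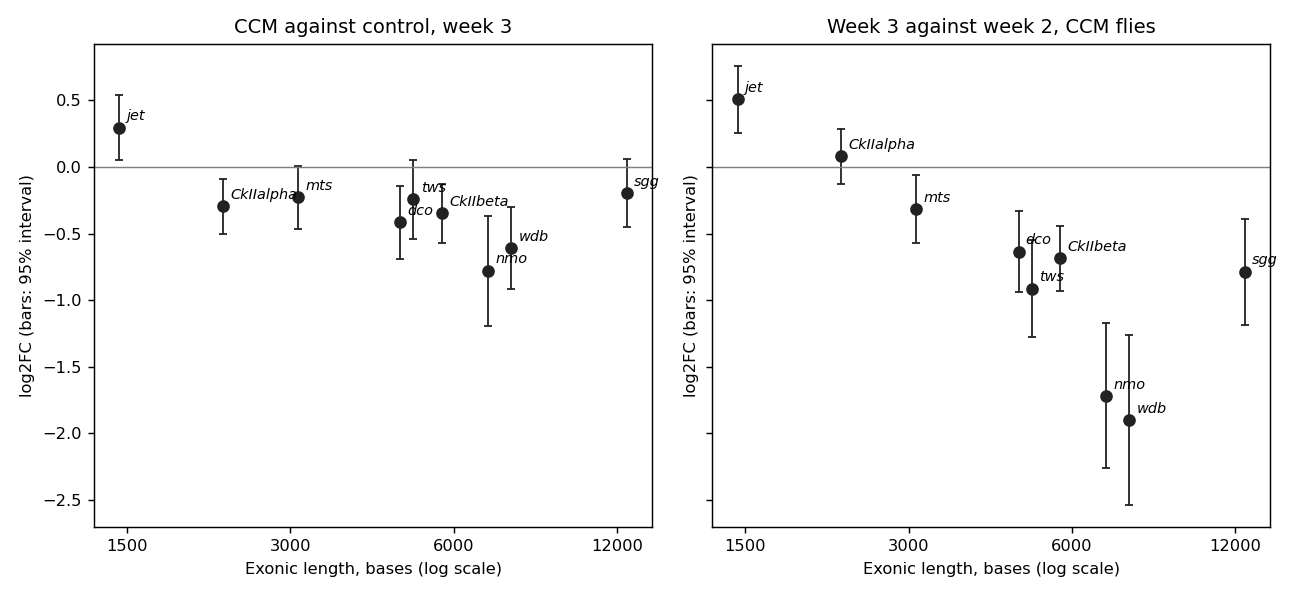
Log2 fold change of each member (vertical axis, bars for the 95% interval, fits without length offsets) against its exonic length in bases on a log axis, for CCM against control at week 3 (left) and for week 3 against week 2 in CCM flies (right). In CCM flies between week 2 and week 3 the values run from 0.51 for jet at 1453 bases to -1.90 for wdb at 7655 bases, with sgg at 12499 bases far off this order at -0.78.

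In control flies the same comparison gave 3 calls, all lower at week 3: nmo, tws and wdb (17.3% of all 12200 features were called lower). None of the 9 members had separate groups, where 43.8% of all features did. After each library was adjusted for length, sgg, CkIIalpha and CkIIbeta had separate groups, all higher at week 3, against 40.6% of all features in either direction. nmo had 16.8, 19.9 and 19.8 CPM in control week 3 libraries and 30.7, 19.0 and 65.3 CPM in control week 2 libraries, and fell by 1.02 on the log2 scale (edgeR adjusted p = 0.0999). wdb had 37.8, 30.4 and 31.9 CPM at week 3 and 54.1, 37.3 and 118 CPM at week 2, and fell by 1.06 (adjusted p = 0.081). tws had 79.2, 60.7 and 60.2 CPM at week 3 and 96.5, 75.7 and 162 CPM at week 2, and fell by 0.74 (adjusted p = 0.088). In all 3 genes week 2 library C stood far above the other libraries. Tissue markers moved in this comparison too, and their part was not tested: 6 of 6 photoreceptor, 3 of 3 yolk, 3 of 6 testis and 1 of 4 ovary and eggshell markers were called lower and none of the 6 neuronal ones, and the ovary and eggshell sum was 54.7 to 91.3 CPM at week 3 and 166 to 371 CPM at week 2.

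These 3 calls were lost when any of 5 of the 6 libraries was left out, while leaving out control week 2 library B gave 6 member calls, all lower, in a fit that called 23.5% of all features lower. With length offsets none of the 3 was called and sgg was called higher instead (0.53, 95% interval 0.29 to 0.76, edgeR adjusted p = 0.026; 13.4% of all features were called higher). The other members were not called: dco at -0.47, CkIIbeta at -0.33, sgg at -0.29, mts at -0.04, jet at 0.13 and CkIIalpha at 0.27. For jet, for example, the control levels were 18.0, 19.4 and 19.7 CPM at week 3 and 15.9, 19.3 and 17.1 CPM at week 2 (interval -0.21 to 0.47). Whether the change with age differed between CCM and control flies is the same interaction as above, in which no member was called.

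**Figure D4:**
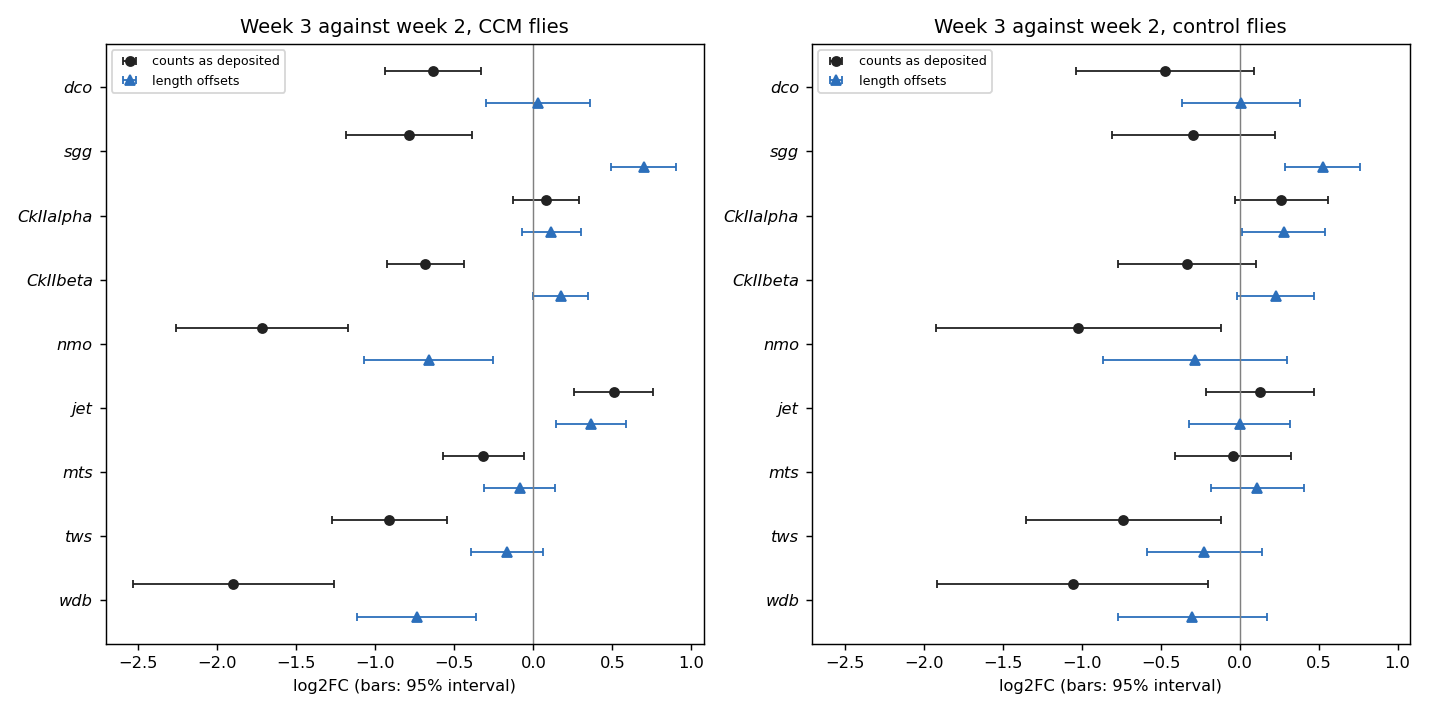
Log2 fold change of each member, week 3 over week 2, in CCM flies (left) and control flies (right), with bars for the 95% interval; circles are the edgeR fit to the counts as deposited and triangles the fit with length offsets. In CCM flies nmo, wdb and jet keep their direction in both fits and sgg turns, at -0.78 and 0.70; the control intervals are wider.

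Ratios of subunits within a library do not depend on how libraries are scaled. Between the PP2A regulatory subunits, wdb over tws (CPM per kb of each) was 0.234, 0.221 and 0.322 in CCM week 3, 0.316, 0.331 and 0.350 in control week 3, 0.381, 0.498 and 0.617 in CCM week 2, and 0.370, 0.326 and 0.480 in control week 2. In CCM flies the ratio was lower in each week 3 library than in each week 2 library, with a difference of -0.94 on the log2 scale (exact two-sided permutation p = 0.1, the smallest that 3 against 3 libraries allow; 0.27 adjusted over the 8 ratio tests). CCM and control overlapped at week 3 (-0.38, exact p = 0.2) and at week 2 (0.34, exact p = 0.2), as did the 2 ages in control flies (-0.22, exact p = 0.3). wdb is the longer gene, at 7655 exonic bases against 5059 for tws; after adjustment of each library for length the difference in CCM flies between ages was -0.55, and the groups still did not overlap.

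CkIIalpha over CkIIbeta was 6.14, 6.72 and 6.52 in CCM week 3, 5.85, 7.15 and 5.80 in control week 3, 4.45, 3.68 and 3.37 in CCM week 2, and 4.26, 4.77 and 3.61 in control week 2. All 6 week 3 libraries were thus above all 6 week 2 libraries. The difference between ages was 0.76 in CCM flies and 0.57 in control flies on the log2 scale, each with an exact p of 0.1, the smallest possible, and an adjusted p of 0.27. Between CCM and control the ratio overlapped at week 3 (0.05, exact p = 0.8) and at week 2 (-0.14, exact p = 0.5). CkIIbeta is the longer of the pair, and after each library was adjusted for length the differences between ages were -0.06 in CCM flies and 0.05 in control flies, with overlapping groups, so the shift with age was not seen on that scale.

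**Figure D5:**
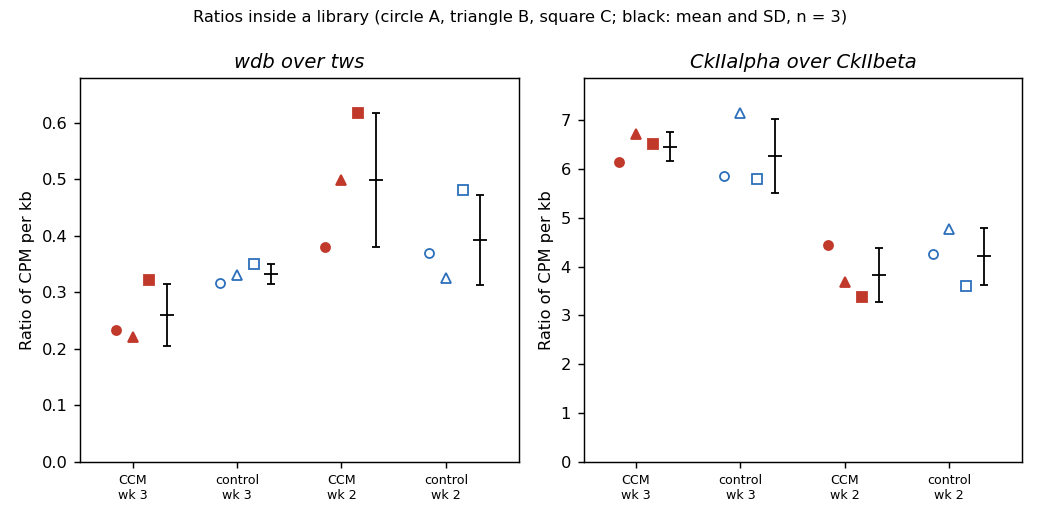
Ratio of CPM per kb of wdb over tws (left) and CkIIalpha over CkIIbeta (right) in each library of the 4 conditions; circles, triangles and squares are libraries A, B and C, and black bars give the mean and SD of 3 libraries. The week 3 libraries lie above the week 2 libraries for CkIIalpha over CkIIbeta in both schedules, at 5.80 to 7.15 against 3.37 to 4.77, a shift that was not seen in length-adjusted values (-0.06 and 0.05).

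The members act with other enzymes and on the clock genes themselves, and of 41 such genes listed 39 were tested (S6k and bdbt were not matched). At week 2 none was called. At week 3 none was called in edgeR without the block, and with it 9 were lower and 1 higher in CCM flies (all features: 6.26% lower and 3.08% higher). Among the other clock kinases 4 of 9 were lower: Pka-C1, the protein kinase A catalytic subunit, at -0.82 (edgeR adjusted p = 0.030), CkIalpha, another casein kinase 1 that acts on PER, at -0.61 (adjusted p = 0.035), CaMKII at -0.51 (adjusted p = 0.046) and the casein kinase 1 gilgamesh (gish) at -0.42 (adjusted p = 0.036). Pka-C1 had 18.4, 17.9 and 23.9 CPM in CCM week 3 libraries, against 40.0, 31.8 and 34.1 CPM in controls, a gap of the kind seen for wdb and nmo. The 4 other PP2A subunits were not called, and Pp2A-29B, the scaffold to which mts binds, had 213, 213 and 231 CPM in CCM week 3 libraries, against 224, 217 and 225 CPM in controls, which overlap.

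Of the substrates of these enzymes, per was higher in CCM week 3 flies (0.36, edgeR adjusted p = 0.040 with the block) and tim lower (-0.61, adjusted p = 0.030). per had 63.2, 68.1 and 65.9 CPM in CCM week 3 libraries, against 47.1, 51.9 and 54.7 CPM in controls, and tim had 77.0, 66.5 and 70.1 CPM, against 128, 89.3 and 111 CPM. Both pairs of groups were separate, in opposite directions. RNA of every library was extracted shortly after lights-on, so a different level and a different timing of a cycling transcript cannot be told apart. With block and length offsets per (0.53) and tim (-0.34) kept direction and call, as did Pka-C1 (-0.60), CkIalpha (-0.52) and CaMKII (-0.34) and the clock gene Pdp1 (-0.42). The calls of gish (-0.14), the phosphatase flw (-0.21), ctrip (0.01) and Clk (-0.73) were lost in that fit, and the clock gene vri (0.37) was called higher.

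Between week 2 and week 3 in CCM flies, 19 of the 39 pathway genes were called lower and 8 higher at week 3 (all features: 29.6% and 26.4%). In control flies 8 were lower and 6 higher (all features: 17.3% and 14%), counts near the background. The ubiquitin ligase partners split in CCM flies: the small subunits SkpA (0.32, edgeR adjusted p = 0.034) and Roc1a (0.50, adjusted p = 0.0053), which with Cul1 form the ligase that F-box proteins such as Jet join, Nedd8 (0.45) and the signalosome subunit CSN5 (0.23) were higher, while the cullins Cul1 (-0.77) and Cul3 (-2.04), the ligase ctrip (-1.99), the deubiquitinase Usp8 (-0.64) and BRWD3 (-1.07) were lower. In control flies the same genes were called in the same directions, except CSN5, which was not called (0.02). ctrip had 31.7, 29.1 and 36.7 CPM in CCM week 3 and 86.4, 138 and 148 CPM in CCM week 2. Of the other PP2A subunits wrd (-0.53), CG4733 (-0.91) and Cka (-0.39) were lower, and the scaffold Pp2A-29B was not called. With length offsets 11 pathway genes were called lower and 11 higher, near the 23.7% and 26.9% over all features: Cul3 (-1.22) and ctrip (-0.53) stayed lower, SkpA (0.25) and Roc1a (0.34) stayed higher, and wrd (0.59) and Cka (0.51) turned to higher.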

How the data were processed

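Whole-fly RNA of 12 samples was sequenced, and the authors deposited 1 table of raw counts per gene for each sample (unnormalised, per the labels on the BDGP6 annotation of dm6); the strand setting is not given in the sources used here. Some overlapping genes were counted as merged features, none of them a member.

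Counts were tested with edgeR 4.0.16 (R 4.3.3; filterByExpr, TMM, quasi-likelihood F test, Benjamini-Hochberg over all features, adjusted p under 0.1), each pair of conditions alone, as the study's methods do, and the interaction over 12 samples. Fold changes are edgeR's; 95% intervals were derived from the F statistic. Alternatives were DESeq2 1.42.0, RLE scaling, no filter, a threshold of 0.05, the replicate letter as a block, length offsets (lowess of counts on log2 exonic length, span 0.3), 1 fit over all samples and each library left out. The fits were tested on simulated data. Same-letter libraries deviated together at week 3 (correlations 0.272 to 0.58 over 12515 features, 6 of 6 best with their own letter), so block values are given there; the labels give the letters with no meaning.

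All 10 members are named; other genes only where called or set beside a member. The members and pathway and marker lists were chosen with earlier results of these data known. slmb and its ratio to jet were left out. Gene positions and lengths come from the Ensembl annotation of dm6.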

Additional observations from a re-analysis of the deposited data

How the results depend on the processing

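Of 630 member fold changes recomputed under alternatives, 538 kept direction and side of the threshold, 34 lost the call, 12 gained it and 46 turned direction. Member calls at week 3 numbered 0, against 2 with DESeq2, 5 with the replicate block and 1 with block and length offsets; in aging controls 3, against 0 at adjusted p under 0.05, 0 with the replicate block, 1 with length offsets (1 with the block too) and 0 to 6 without 1 library (0 without control week 2 replicate A, 6 without replicate B); in aging CCM flies 8, against 4 with length offsets, with or without the replicate block. Calls over all features were 0 at week 2 (DESeq2 7, replicate block with length offsets 1, all 12 samples in 1 fit 2), 2 at week 3 (1 at adjusted p under 0.05, DESeq2 353, replicate block 1140, block with length offsets 554, all 12 samples 0, 0 to 5 without 1 library, the 5 without CCM replicate C), 3821 in aging controls (2047 at adjusted p under 0.05, 1315 to 4953 without 1 library, week 2 replicates A and B) and 0 for the interaction (DESeq2 1). The added length-adjusted values, chosen after seeing the data, left 4 members with separate groups at week 3 (of 9; 14.8% of all features). They left 6 in aging CCM flies (of 9; 57.2% of all features) and gave 3 in aging controls (of 0; 40.6% of all features). On that scale wdb over tws was at -0.55 in aging CCM flies, and CkIIalpha over CkIIbeta at -0.16 at week 3, 0.0486 in aging controls and -0.0596 in aging CCM flies. Directions turned at week 2 for mts (DESeq2 -0.0168, RLE -0.013) and nmo (replicate block 0.0144). With length offsets, then with the replicate block too, they turned for sgg at week 3 (0.21 and 0.21), in aging controls for dco (0.00937 and 0.0227), sgg (0.53 and 0.53), CkIIbeta (0.23 and 0.23) and mts (0.11 and 0.12), in aging CCM flies for dco (0.0283 and 0.0315), sgg (0.70 and 0.70) and CkIIbeta (0.17 and 0.17), and in the interaction for dco (0.0272 and 0.0164), sgg (0.17 and 0.17) and tws (0.0647 and 0.0579). Without control week 2 replicate B or C, the week 2 values ran from -0.49 to 0.0224 for dco, -0.18 to 0.16 for CkIIbeta, -0.44 to 0.46 for nmo, -0.11 to 0.14 for mts, -0.31 to 0.23 for tws and -0.10 to 0.76 for wdb; mts in aging controls ran from -0.21 to 0.0914, and the interaction from -0.44 to 0.14 for dco and -0.47 to 0.14 for tws. Length offsets remove the length trend by construction, and the cause of these shifts was not tested. Same-letter correlations averaged -0.073 at week 2, 0.00726 in aging controls and -0.251 in aging CCM flies, so letters are only names there; the block left 0 member calls at week 2 and 8 in aging CCM flies. No merged feature held a member, so that alternative gave no value, and the slmb over jet ratio could not be computed. Each condition had 3 pools, and the lowest member count in a library was 179, for nmo. What limits precision was not tested.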
